A study of Mus musculus with 6 samples.

Results

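The genes described here are 38 genes of glucose uptake, glycolysis, lactate handling, the pyruvate dehydrogenase gate and the pentose phosphate pathway, out of 55487 genes in the deposited count table. They were chosen by symbol: 3 glucose transporters, 9 genes of upper glycolysis, 4 genes of the PFKFB family, 6 genes of lower glycolysis, 4 lactate genes, 6 genes of the pyruvate dehydrogenase gate and 6 pentose phosphate genes. All 38 passed the filter on low counts, as did 15801 genes in all. The symbol Aldoa stands on a second row of the table, at chr7:126800790-126809108 (GRCm38), which held 40 counts over the 6 libraries and was not tested, so Aldoa below is the main gene.

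The cells were fibroblasts cultured from the lungs of wild-type C57BL/6 mice, read by RNA-seq. In the treated group they received CIRBP, the cold-inducible RNA-binding protein, as recombinant mouse protein (rmCIRBP) at 1 µg/mL for 24 h, and in the control group PBS for the same time, with 3 libraries each. Both groups had been grown in 10% serum and then kept for 24 h in 0.1% serum. CIRBP is an RNA-binding protein that stressed cells can release and that then binds Toll-like receptors on other cells; the study asks how it acts on fibroblasts. The labels do not say whether the libraries come from separate animals or cultures, and all p-values therefore rest on differences among these libraries that may be technical.

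Cells take up glucose through facilitative transporters of the SLC2A (GLUT) family and trap it by phosphorylation with hexokinase. Phosphofructokinase commits the sugar to glycolysis, the lower steps yield pyruvate, and pyruvate either becomes lactate, which leaves through monocarboxylate transporters, or enters mitochondria through the pyruvate dehydrogenase complex, which pyruvate dehydrogenase kinases switch off. The pentose phosphate pathway branches off after hexokinase and gives NADPH and ribose. Activated fibroblasts of fibrotic lung are known for raised glycolysis, and many of these genes are classical targets of the hypoxia-inducible factors, which bind a short core motif in promoters.

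Libraries held 12105584 to 14262375 counts, and a gene with 0 counts could have up to 3, which is 0.210 to 0.248 CPM (read counts scaled to library size by TMM), a limit that covers counting error only. The 3 pairs of libraries within each group differed by more than sampling noise (chi-square over degrees of freedom of at least 14.2). Mitochondrially encoded genes took 1.21% to 1.43% of counts. The fibroblast markers Col1a1, Col1a2, Col3a1, Pdgfra, Dcn, Lum, Pdgfrb, Thy1 and Tcf21 summed to 19912 to 26669 CPM in rmCIRBP libraries and 23604 to 28669 CPM in PBS libraries, so the defining markers of the labelled cell type were present. Of these 9, 1 was called higher and 1 lower, and their log2 fold changes ran from -1.21 to 1.21. Macrophage markers summed to 74.2 to 143 CPM in rmCIRBP libraries and 115 to 150 CPM in PBS libraries, but single markers changed in both directions, Marco (5.52) and Adgre1 (2.46) upward and Mrc1 (-1.65) downward on the log2 scale (edgeR adjusted p = 0.000543, 0.00440 and 0.0302). Endothelial markers summed to 4.41 to 7.21 CPM in rmCIRBP libraries and 19.0 to 25.9 CPM in PBS libraries, with 2 of 2 tested called lower (log2 fold changes -3.48 and -0.99). Mesothelial markers summed to 2.64 to 5.51 CPM in rmCIRBP libraries and 8.38 to 13.6 CPM in PBS libraries, with 1 of 2 tested, Upk3b, called lower, and neutrophil markers to 1.23 to 1.69 CPM in rmCIRBP libraries and 0 to 0.25 CPM in PBS libraries. Lymphocyte and epithelial markers summed to at most 6.25 CPM in any library, and Cd3e, Elane, Ly6g, S100a9 and Cldn5 were at 0 in all 6 libraries. The part of these other markers in the results was not tested. In such bulk samples fewer cells of a type and less RNA per cell cannot be told apart.

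After rmCIRBP, 9 of the 38 genes rose and 0 fell, while 29 did not pass the test (edgeR's quasi-likelihood test with Benjamini-Hochberg adjustment over all 15801 genes, adjusted p under 0.05). The 9 were the glucose transporter Slc2a6, the lactate transporter Slc16a1, the hexokinase Hk2, the phosphofructokinase Pfkl, the lactate dehydrogenase Ldha, the pyruvate dehydrogenase kinase Pdk1, the phosphoglycerate mutase Pgam1, and G6pdx and Pgd, the pair of NADPH-forming enzymes of the pentose phosphate pathway. That is 23.7% of the 38 genes called, where 11.5% of all genes tested were called. Of all genes tested, 6.74% were called higher and 4.77% lower (1065 and 753 genes, or 925 and 1022 with upper quartile scaling). The 38 were chosen with earlier results of these data known, so these shares are a description only. The median log2 fold change of the 38 was 0.35, against -0.01 over all genes tested. Of the 38 values, 25 were above 0 and 13 below, and they ran from -0.76 (Pdk2) to 4.07 (Slc2a6). At an unadjusted p under 0.05 there were 17 higher and 2 lower (Pdk2 and Pdha1), limma voom called 9 higher and 0 lower, and DESeq2 called 11 higher, adding Tpi1 and Slc16a3, and 1 lower, Pdk2. For 13 genes every rmCIRBP library lay above every PBS library and for 5 every one lay below, where 17.5% and 17.1% of all genes tested did so.

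**Figure D1:**
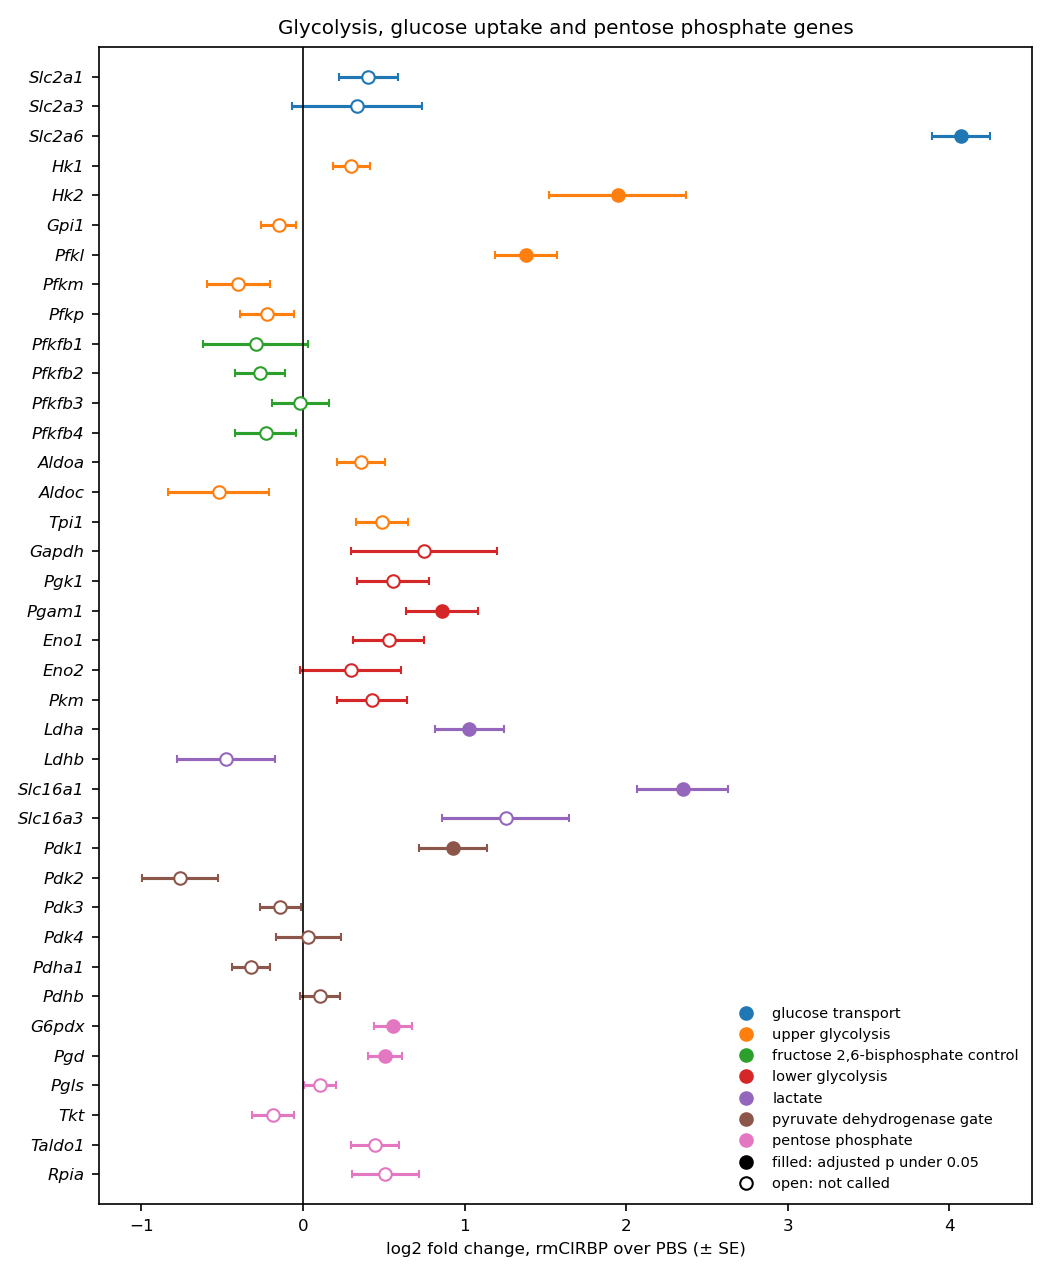
Log2 fold change of rmCIRBP over PBS (x axis, ± SE) for each of the 38 genes (y axis, in order of pathway step, coloured by step), with filled points for genes that passed the test and open points for those that did not. The 9 filled points lie between 0.51 (Pgd) and 4.07 (Slc2a6), and each step except the PFKFB genes holds at least 1.

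Of the 3 glucose transporters, 1 rose. Slc2a6, which encodes GLUT6, a transporter found mainly on intracellular membranes, had 53.2, 51.4 and 38.4 CPM in the rmCIRBP libraries and 2.91, 2.77 and 2.80 CPM in the PBS libraries. The groups did not overlap, and the PBS values lay close together. The mean was 47.7 ± 8.05 CPM with rmCIRBP and 2.83 ± 0.0753 CPM with PBS (SD, n = 3 each), a 16.8-fold difference (log2 fold change 4.07 ± 0.18 SE; edgeR adjusted p = 2.51e-05), which ranked 9 by p among the genes tested. The call held without any single library.

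Slc2a1, which encodes GLUT1, the usual plasma membrane transporter of cultured cells, did not pass the test. It had 106, 129 and 95.5 CPM in rmCIRBP libraries against 104, 78.8 and 67.3 CPM in PBS libraries, so the groups overlapped (log2 fold change 0.40 ± 0.18; edgeR adjusted p = 0.188). Slc2a3, the high-affinity transporter known from neurons, stayed near the lower end of detection, at 0.809 to 1.32 CPM in rmCIRBP libraries and 0.582 to 0.957 CPM in PBS libraries. Per kb of exon, Slc2a6 made up 35.3%, 30.2% and 30.4% of the CPM of these 3 transporters in rmCIRBP libraries and 2.95%, 3.68% and 4.32% in PBS libraries. The share of Slc2a1 was correspondingly 67.7 ± 2.81% with rmCIRBP and 95.9 ± 0.88% with PBS, a difference of -28.15 percentage points (two-sided exact permutation p = 0.1, n = 3 each, the smallest that 3 against 3 allows; adjusted p = 0.18 over 9 family shares).

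Of the 9 genes of upper glycolysis, which take glucose to triose phosphates, 2 rose, and both encode an isozyme of a regulated step. Hk2, the inducible hexokinase that can sit on mitochondria, had 54.1, 101 and 54.9 CPM in rmCIRBP libraries against 30.6, 13.9 and 10.1 CPM in PBS libraries. The groups did not overlap, although rmCIRBP 2 stood well above its companions and PBS 1 stood well above the other PBS libraries. The log2 fold change was 1.95 ± 0.42 (3.85-fold; edgeR adjusted p = 0.0248). The call ended without rmCIRBP 1 (0.0534), PBS 2 (0.106) or PBS 3 (0.0786), and without PBS 1 the log2 fold change was 2.55. Hk1, the housekeeping hexokinase, had 127, 142 and 114 CPM with rmCIRBP and 110.1, 102 and 98.9 CPM with PBS; these groups did not overlap, but the gene did not pass the test (log2 fold change 0.30 ± 0.11; edgeR adjusted p = 0.133). Hk2 was 43.0 ± 6.49% of both hexokinases per kb with rmCIRBP and 19.1 ± 8.23% with PBS, without overlap (two-sided exact permutation p = 0.1, n = 3 each; adjusted p = 0.18). The height of this share depends on the length used. The merged exons of Hk1 measured 8532 bases, but its transcript with the longest coding sequence 3639.

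Pfkl, the liver-type phosphofructokinase, had 199, 238 and 169 CPM in rmCIRBP libraries and 95.0, 77.8 and 60.6 CPM in PBS libraries, with no overlap. It rose 2.60-fold (log2 fold change 1.38 ± 0.19; edgeR adjusted p = 0.00432), and the call held without any single library. The muscle-type Pfkm had 51.4, 39.5 and 60.0 CPM with rmCIRBP and 52.6, 67.1 and 79.3 CPM with PBS, and the platelet-type Pfkp had 46.4, 58.4 and 38.1 CPM with rmCIRBP and 63.2, 51.5 and 52.1 CPM with PBS. Neither passed the test (log2 fold change -0.40 ± 0.19 and -0.22; edgeR adjusted p = 0.216 and 0.423), and in both the groups overlapped. Within the phosphofructokinase family, per kb, Pfkl held 61.3%, 68.8% and 54.8% in rmCIRBP libraries and 41.0%, 32.7% and 24.7% in PBS libraries, while Pfkm held 31.6%, 22.8% and 39.0% in rmCIRBP libraries and 45.4%, 56.5% and 64.7% in PBS libraries. By this scaling Pfkl had the largest share in each rmCIRBP library, and Pfkm in each PBS library. The order with PBS depends on the length used: merged exons measured 6675 bases for Pfkl, 3340 for Pfkm and 13401 for Pfkp. Their transcripts with the longest coding sequence had 3730, 2798 and 2679 bases. In CPM without this scaling, Pfkl was also the highest in PBS 1 and PBS 2, and Pfkm was the highest in PBS 3. The Pfkl share gave the same smallest exact permutation p of 0.1 (two-sided, n = 3 each; adjusted p = 0.18).

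The other 4 genes of upper glycolysis did not pass the test. Gpi1, glucose-6-phosphate isomerase, had 376, 375 and 352 CPM with rmCIRBP against 419, 382 and 423 CPM with PBS, lower in every rmCIRBP library but by little (log2 fold change -0.15; edgeR adjusted p = 0.405). Aldoa, the main aldolase, had 767, 872 and 656 CPM with rmCIRBP against 651, 541 and 599.5 CPM with PBS, higher in every rmCIRBP library (0.36 ± 0.15; adjusted p = 0.157). Aldoc, the brain-type aldolase, had 1.03 to 1.47 CPM with rmCIRBP and 1.63 to 2.00 CPM with PBS. Tpi1, triose phosphate isomerase, had 291, 321 and 237 CPM with rmCIRBP against 237, 181 and 186 CPM with PBS, so that the lowest rmCIRBP and the highest PBS library were alike (log2 fold change 0.49 ± 0.16; edgeR adjusted p = 0.0892, and 0.0410 with DESeq2).

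The 4 PFKFB genes make and break fructose 2,6-bisphosphate, the small molecule that activates phosphofructokinase, and 0 of them passed the test, also at an unadjusted p under 0.05 and with DESeq2 or limma voom. Their log2 fold changes lay between -0.29 and -0.02. Pfkfb3, the most abundant per kb and known as an inducible, strongly kinase-directed form, had 56.9, 84.5 and 64.4 CPM with rmCIRBP against 79.6, 71.4 and 57.5 CPM with PBS. The groups overlapped throughout, and the value had no stable sign (log2 fold change -0.02 ± 0.18; edgeR adjusted p = 0.961). Pfkfb2 was lower in every rmCIRBP library (13.2 to 15.4 CPM against 15.5 to 20.3 CPM with PBS) without passing the test (-0.27 ± 0.16; adjusted p = 0.301).

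Of the 6 genes of lower glycolysis, which turn triose phosphates into pyruvate, 1 rose, and all 6 values were above 0 with a median log2 fold change of 0.54. Pgam1, phosphoglycerate mutase, had 206, 298 and 177 CPM in rmCIRBP libraries and 156, 108 and 111 CPM in PBS libraries, without overlap. Its log2 fold change of 0.86 ± 0.22 (1.81-fold) passed narrowly (edgeR adjusted p = 0.0461). The call ended without rmCIRBP 1 (0.0956), rmCIRBP 2 (0.0676), PBS 2 (0.159) or PBS 3 (0.161), with upper quartile scaling (0.0558) and with a robust edgeR fit (0.0511). Of its transcript, 41.5% of 50-base windows also occur in other genes, and annotated pseudogenes among them held 0.98% of the counts of Pgam1 and these pseudogenes together.

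The 3 most abundant genes of these steps, Eno1, Pkm and Pgk1, did not pass the test. Eno1, the common enolase, had 992, 1285 and 818 CPM with rmCIRBP against 905, 624 and 614 CPM with PBS (log2 fold change 0.53 ± 0.22; edgeR adjusted p = 0.158). Pgk1, phosphoglycerate kinase, had 397, 529 and 304 CPM with rmCIRBP against 336, 233 and 266 CPM with PBS (0.56 ± 0.22; adjusted p = 0.143). Pkm, pyruvate kinase, had 904, 988 and 792 CPM with rmCIRBP against 875, 493 and 628 CPM with PBS (0.43 ± 0.21; adjusted p = 0.232). In all of these PBS 1 reached above the lowest rmCIRBP library, and rmCIRBP 2 was the highest of all 6 libraries; without it the log2 fold change was 0.34 for Eno1 and 0.33 for Pgk1. Eno2, the neuronal enolase, had 19.5 to 46.3 CPM with rmCIRBP and 22.8 to 36.2 CPM with PBS. Other genes share 72.2% of the 50-base windows of the Eno1 transcript, 68.0% of Pgk1 and 39.3% of Pkm, so reads of these genes could be split or lost in counting. Annotated pseudogenes that share windows held 0.61%, 0.19% and 0.81% of the counts of each gene and its pseudogenes together. Reads lost in counting would not show in these shares.

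Gapdh, glyceraldehyde-3-phosphate dehydrogenase and normally among the most abundant transcripts of any cell, cannot be read from this table. It was listed at only 19.4, 45.1 and 13.0 CPM in rmCIRBP libraries and 15.2, 10.0 and 20.8 CPM in PBS libraries. Its transcript shares 90.4% of its 50-base windows with 222 other genes. Of those, 213 are annotated pseudogenes in the table, and they hold 88.8% of the counts of Gapdh and these pseudogenes together: 2559, 2822 and 2138 counts in rmCIRBP libraries and 1886, 1642 and 2287 in PBS libraries. The log2 fold change of 0.75 ± 0.45 (edgeR adjusted p = 0.317) therefore rests on a small share of the Gapdh-like counts, and it was 0.077 without rmCIRBP 2.

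Of the 4 lactate genes, 2 rose. Ldha, the subunit that favours the conversion of pyruvate to lactate, had 661, 782 and 584 CPM in rmCIRBP libraries against 437, 294 and 262 CPM in PBS libraries, without overlap. It rose 2.04-fold (log2 fold change 1.03 ± 0.21; edgeR adjusted p = 0.0211), and the call ended without rmCIRBP 1 (0.0673), PBS 2 (0.0938) or PBS 3 (0.0804). Ldhb, the heart-type subunit, had 16.9, 10.4 and 17.7 CPM with rmCIRBP and 15.4, 16.9 and 30.3 CPM with PBS and did not pass the test (-0.48 ± 0.30; adjusted p = 0.339). Per kb, Ldha was 95.4 ± 1.70% of both subunits with rmCIRBP and 87.6 ± 6.49% with PBS (two-sided exact permutation p = 0.1, n = 3 each; adjusted p = 0.18).

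Slc16a1, which encodes MCT1, a proton-linked carrier of lactate and other monocarboxylates, had 44.8, 31.2 and 63.7 CPM in rmCIRBP libraries and 11.4, 8.46 and 7.59 CPM in PBS libraries. The lowest rmCIRBP library stood well above the highest PBS library. It rose 5.10-fold (log2 fold change 2.35 ± 0.28; edgeR adjusted p = 0.00219), and the call held without any single library. Slc16a3, which encodes MCT4, the carrier typical of lactate-exporting cells, had 61.5, 99.5 and 34.1 CPM with rmCIRBP against 39.1, 22.6 and 20.2 CPM with PBS. The lowest rmCIRBP library fell below the highest PBS library, and the gene did not pass the test (log2 fold change 1.25 ± 0.39; edgeR adjusted p = 0.0796), though it did with DESeq2 (0.00989) and without rmCIRBP 3 (0.0243), and its log2 fold change was 0.81 without rmCIRBP 2. These carriers ordered the rmCIRBP libraries in opposite ways, Slc16a1 being highest in rmCIRBP 3 and lowest in rmCIRBP 2. The share of Slc16a3 was 53.4%, 72.7% and 30.8% in rmCIRBP libraries against 74.1%, 69.0% and 68.9% in PBS libraries, per kb (two-sided exact permutation p = 0.3, n = 3 each; adjusted p = 0.45).

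Of the 6 genes of the pyruvate dehydrogenase gate, 1 rose. Pdk1, a kinase that switches the complex off, had 52.8, 69.4 and 42.6 CPM in rmCIRBP libraries against 35.8, 24.5 and 26.3 CPM in PBS libraries, without overlap. It rose 1.90-fold (log2 fold change 0.93 ± 0.21; edgeR adjusted p = 0.0292), and the call ended without rmCIRBP 1 (0.0796), PBS 2 (0.114) or PBS 3 (0.113). Pdk2, another kinase of the family, had 21.9, 15.3 and 24.5 CPM with rmCIRBP against 25.0, 36.4 and 42.9 CPM with PBS. Every rmCIRBP library lay below every PBS library, but the gene did not pass the test (-0.76 ± 0.24; edgeR adjusted p = 0.0782, and 0.0302 with DESeq2). Pdk3 (-0.14; adjusted p = 0.509) and Pdk4 (0.03; adjusted p = 0.935) also did not pass. As a share of the family per kb, Pdk1 was 19.2%, 28.0% and 16.3% in rmCIRBP libraries and 14.1%, 9.48% and 8.32% in PBS libraries, and Pdk2 was 19.6%, 15.1% and 23.1% in rmCIRBP libraries and 24.2%, 34.7% and 33.4% in PBS libraries.

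Pdha1 and Pdhb encode the subunits of the first enzyme of the complex itself. Pdha1 had 228, 226 and 251 CPM with rmCIRBP against 320, 269 and 293 CPM with PBS, lower in every rmCIRBP library, without passing the test (-0.32 ± 0.12; edgeR adjusted p = 0.114). Part of its exons, 16.1%, overlaps another gene. Pdhb had 55.2 to 60.0 CPM with rmCIRBP and 46.5 to 62.7 CPM with PBS.

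Of the 6 pentose phosphate genes, 2 rose, and both belong to the oxidative arm that yields NADPH. G6pdx, glucose-6-phosphate dehydrogenase and the entry enzyme, had 88.0, 72.9 and 82.3 CPM in rmCIRBP libraries against 57.6, 48.9 and 58.9 CPM in PBS libraries. Pgd, 6-phosphogluconate dehydrogenase, had 186, 190.1 and 185 CPM in rmCIRBP libraries against 128, 122 and 144 CPM in PBS libraries. Neither gene had overlapping groups, and Pgd had the narrowest spread with rmCIRBP of the 9 that rose. The rises were small, 1.47-fold for G6pdx (log2 fold change 0.56 ± 0.12; edgeR adjusted p = 0.0230) and 1.42-fold for Pgd (0.51 ± 0.10; adjusted p = 0.0204). The call of G6pdx ended without rmCIRBP 1 (0.0956), rmCIRBP 3 (0.0562), PBS 2 (0.0854) or PBS 3 (0.0569), and that of Pgd without rmCIRBP 1 (0.0793) or PBS 2 (0.0899); 13.6% of the exonic bases of G6pdx overlap Ikbkg on the other strand.

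The remaining enzymes of the pathway did not pass the test. Pgls, the lactonase of the oxidative arm, had 61.8 to 66.2 CPM with rmCIRBP and 55.1 to 64.3 CPM with PBS. In the non-oxidative arm, Taldo1, transaldolase, had 86.0, 104 and 79.3 CPM with rmCIRBP against 76.8, 57.0 and 64.0 CPM with PBS (log2 fold change 0.44 ± 0.15; edgeR adjusted p = 0.0926), and Rpia, ribose-5-phosphate isomerase, had 9.34 to 12.9 CPM with rmCIRBP against 6.56 to 9.15 CPM with PBS (0.51 ± 0.21; adjusted p = 0.151). Both were higher in every rmCIRBP library. Tkt, transketolase, had 146, 166 and 126 CPM with rmCIRBP against 175, 152 and 172 CPM with PBS (-0.19; adjusted p = 0.386).

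**Figure D2:**
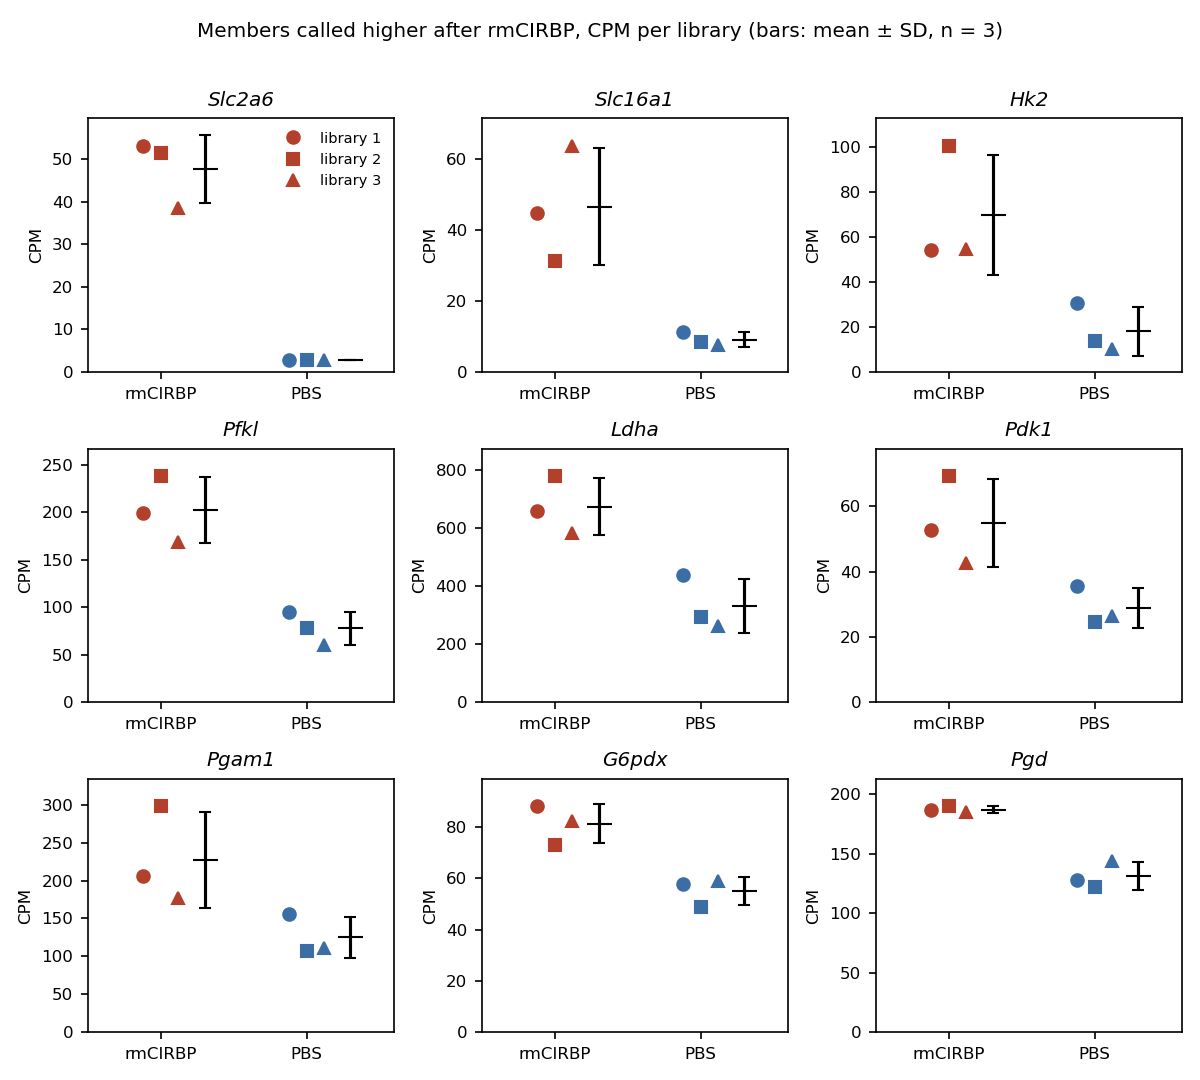
CPM in each library (y axis, from 0, a scale for each gene) for the 9 genes that rose, with rmCIRBP left of PBS, a marker shape for each replicate number, and bars for mean ± SD (n = 3). In every panel the lowest rmCIRBP library lies above the highest PBS library. As a ratio of these values, the margin is widest in Slc2a6 (38.4 against 2.91 CPM).

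To show the promoter letters of the genes that rose most, the RefSeq windows from 250 bases before to 50 after the transcription start (GRCm38.p6) are printed for the first 5 by fold change, 5′ to 3′ on the strand of the gene. Capitals mark the core motif of the hypoxia-inducible factors, ACGTG or GCGTG, searched on both strands, so that CACGT and CACGC are its reverse complements, and the palindrome CACGTG counts as 2 overlapping matches. The windows lie at chr2:27027949-27028248 (minus strand) for Slc2a6, chr3:104638414-104638713 (plus) for Slc16a1, chr6:82774405-82774704 (minus) for Hk2, chr10:78009758-78010057 (minus) for Pfkl and chr7:46845554-46845853 (plus) for Ldha.
Slc2a6: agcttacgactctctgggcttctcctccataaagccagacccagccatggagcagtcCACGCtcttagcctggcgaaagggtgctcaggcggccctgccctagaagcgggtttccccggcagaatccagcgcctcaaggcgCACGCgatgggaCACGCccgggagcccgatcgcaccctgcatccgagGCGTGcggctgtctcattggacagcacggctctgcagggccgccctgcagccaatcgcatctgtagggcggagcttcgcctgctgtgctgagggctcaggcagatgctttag
Slc16a1: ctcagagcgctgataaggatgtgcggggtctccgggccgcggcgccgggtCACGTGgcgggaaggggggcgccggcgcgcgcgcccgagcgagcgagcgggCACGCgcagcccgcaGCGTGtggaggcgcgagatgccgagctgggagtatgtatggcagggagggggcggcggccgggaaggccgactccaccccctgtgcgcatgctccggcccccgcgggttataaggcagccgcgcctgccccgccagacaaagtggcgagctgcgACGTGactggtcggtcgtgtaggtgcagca
Hk2: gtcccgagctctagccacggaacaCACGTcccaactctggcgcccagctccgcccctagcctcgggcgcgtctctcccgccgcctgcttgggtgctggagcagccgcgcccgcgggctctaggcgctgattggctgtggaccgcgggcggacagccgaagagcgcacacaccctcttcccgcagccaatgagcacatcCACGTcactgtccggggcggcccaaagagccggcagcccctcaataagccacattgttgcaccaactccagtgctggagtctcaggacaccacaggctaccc
Pfkl: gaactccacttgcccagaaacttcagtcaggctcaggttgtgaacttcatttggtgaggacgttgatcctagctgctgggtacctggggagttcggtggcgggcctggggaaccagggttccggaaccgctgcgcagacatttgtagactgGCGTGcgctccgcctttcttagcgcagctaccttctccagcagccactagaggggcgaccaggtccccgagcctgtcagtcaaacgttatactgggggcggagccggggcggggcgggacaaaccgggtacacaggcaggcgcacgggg
Ldha: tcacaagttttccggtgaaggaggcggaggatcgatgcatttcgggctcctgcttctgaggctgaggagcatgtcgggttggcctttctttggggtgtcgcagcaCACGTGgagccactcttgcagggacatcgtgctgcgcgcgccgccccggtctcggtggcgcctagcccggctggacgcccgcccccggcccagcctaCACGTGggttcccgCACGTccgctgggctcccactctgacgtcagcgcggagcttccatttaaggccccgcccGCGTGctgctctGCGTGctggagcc

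There were 4 matches in the Slc2a6 window, 5 in Slc16a1, 2 in Hk2, 1 in Pfkl and 7 in Ldha. Windows were found for 37 of the 38 genes, 1 for each gene, the one nearest to the annotated start. The core stood in 31 of them (83.8%), including all 9 of the genes that rose, and in 43.8% of the 32851 windows of the whole table. It thus also stood in most windows of the genes that did not rise. The 32851 windows include several for some genes and were not limited to genes tested, so these shares are not like for like. At least 2 matches were found in 20 of the 37 (54.1%), among them 7 of the 9 that rose, and in 20.6% of all windows. The letters of the windows differ in another way, with a median GC content of 61.0% for the 37 and 52.7% for all, and the part of base composition in these shares was not tested. The E-box CACGTG, the site of MYC and related factors, which lies within the HIF core search, stood in 4 of 37 windows (10.8%) and in 7.15% of all. The NF-kB consensus was in 0 of 37 and in 4.51% of all. A match describes these letters and does not show that a factor binds there.

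Levels of the genes are given per kb of merged exon, and their order depends on that length. Merged exons measured 5379 bases for Eno1 and 2911 for Aldoa, but their transcripts with the longest coding sequence 2027 and 1549. The 5 highest levels in the rmCIRBP group were Aldoa at 263 ± 37.1, Ldha at 204 ± 30.1, Eno1 at 192 ± 43.9, Pgk1 at 183 and Pkm at 179 ± 19.6 CPM per kb. In the PBS group the corresponding levels were 205 ± 18.9 for Aldoa, 100.1 ± 28.2 for Ldha, 133 ± 30.8 for Eno1, 124 for Pgk1 and 133 ± 38.7 CPM per kb for Pkm (SD, n = 3 each). Neighbours in this order from Ldha to Pkm lay within their SD of each other in the rmCIRBP group, as did Eno1, Pgk1, Pkm and Ldha in the PBS group. Slc2a6 stood at rank 20 of the 38 with rmCIRBP (14.8 CPM per kb) and rank 35 with PBS (0.880), Pfkl at rank 12 (30.3) and rank 20 (11.7), Hk2 at rank 22 and rank 30, and Slc16a1 at rank 23 and rank 32. Slc2a3 was the lowest in both groups (0.138 with rmCIRBP and 0.108 CPM per kb with PBS).

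**Figure D3:**
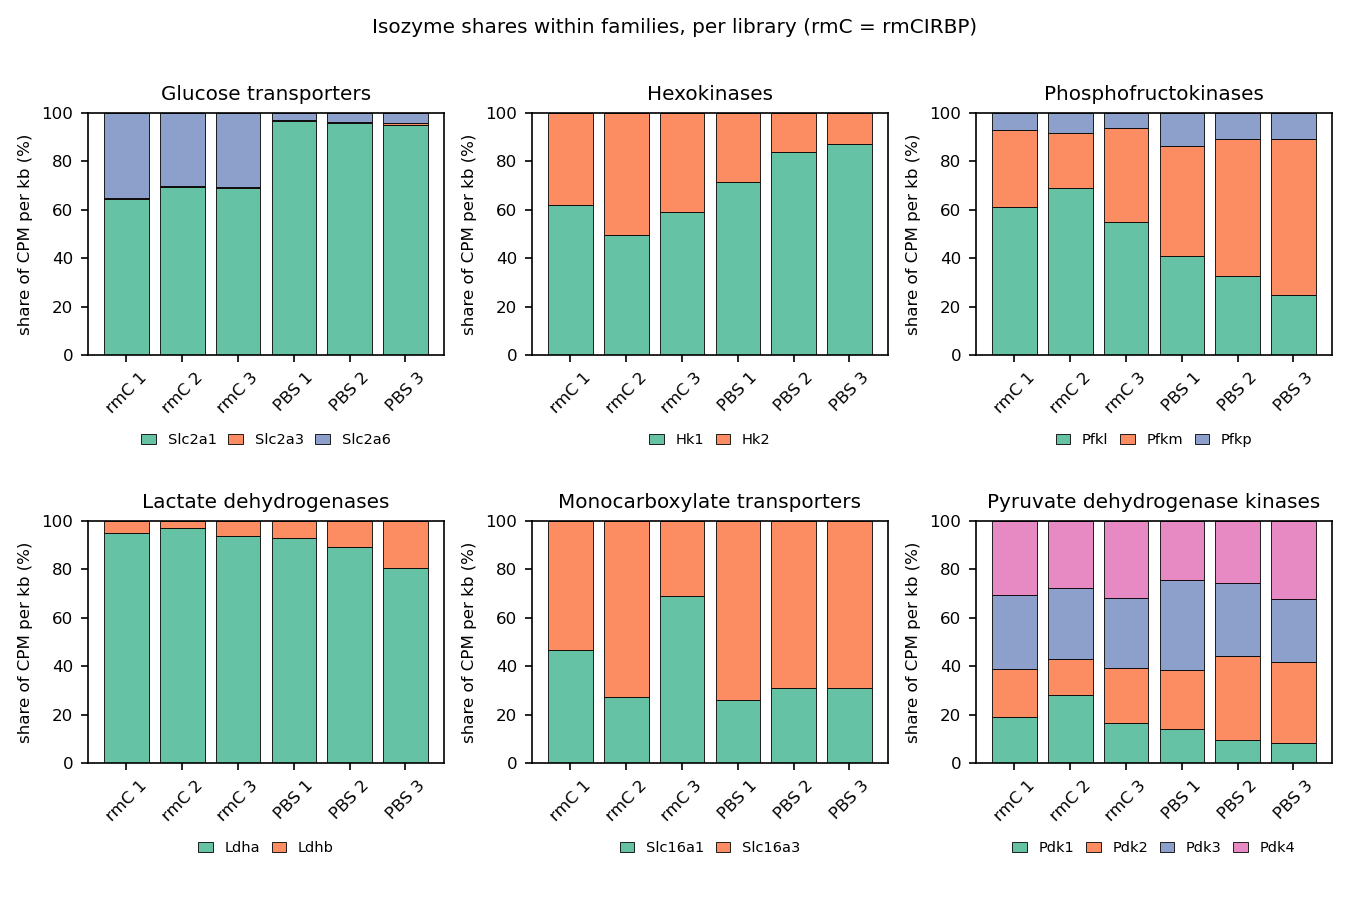
Stacked shares (y axis, % of the family's CPM per kb, from 0 to 100) of each isozyme in 6 families, 1 bar for each library with rmCIRBP libraries left of PBS libraries. Pfkl takes 54.8% to 68.8% of the phosphofructokinases in rmCIRBP libraries and 24.7% to 41.0% in PBS libraries. Of Slc2a1, Slc2a3 and Slc2a6 together, Slc2a6 takes 30.2% to 35.3% in rmCIRBP libraries, and Slc2a1 takes at least 95.0% in PBS libraries. Other transporters of the SLC2A family are not in these shares.

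Of the other shares tested, Pfkfb3 was 66.8% of the PFKFB family per kb with rmCIRBP and 63.1% with PBS (two-sided exact permutation p = 0.4, n = 3 each; adjusted p = 0.45). Pdk4 was 29.9% of its family with rmCIRBP and 27.3% with PBS (exact p = 0.4, n = 3 each; adjusted p = 0.45). Eno1 was 95.9% of Eno1 and Eno2 together with rmCIRBP and 95.3% with PBS (exact p = 0.7, n = 3 each; adjusted p = 0.7), and Aldoa was over 99.7% of Aldoa and Aldoc in every library. With 3 libraries against 3, none of the 9 shares could reach an adjusted p under 0.05.

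Within each group, single libraries were the highest or lowest for many of the genes. Among the rmCIRBP libraries, rmCIRBP 2 was the highest for 21 of the 38 genes and rmCIRBP 3 the lowest for 19. Among the PBS libraries, PBS 1 was the highest for 24 and PBS 2 the lowest for 19. Such counts were not made over all genes tested. The median log2 deviation of the 38 from their group mean was -0.00719, 0.155 and -0.067 in rmCIRBP libraries and 0.127, -0.122 and -0.0289 in PBS libraries. Over all genes tested it lay between -0.00653 and 0.00973. Whether other sets of genes deviate as much was not tested. The CPM of the 38 genes summed to 6505, 7564 and 5744 in the rmCIRBP libraries and 5695, 4328 and 4661 in the PBS libraries, so rmCIRBP 3 and PBS 1 were nearly level. The smooth muscle and pericyte markers Myh11, Actg2, Des, Cnn1, Rgs5 and Cspg4 summed to 602, 1736 and 185 CPM in rmCIRBP libraries and 1135, 497 and 479 CPM in PBS libraries, and were thus also highest in rmCIRBP 2 and PBS 1. Of these 6 markers, 0 were called higher and 1 lower. Their part in the results on these genes was not tested. Without PBS 1 and rmCIRBP 2 together, 15 genes were called higher and 1 lower, Pdk2, the additions including Slc2a1 (edgeR adjusted p = 0.0369), Eno1 (0.0419) and Pkm (0.0453). These are the libraries just shown to be highest for many of the same genes, so this fit gives the added calls no support. Over the whole table it called 2802 genes, against 1818 with all 6 libraries.

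**Figure D4:**
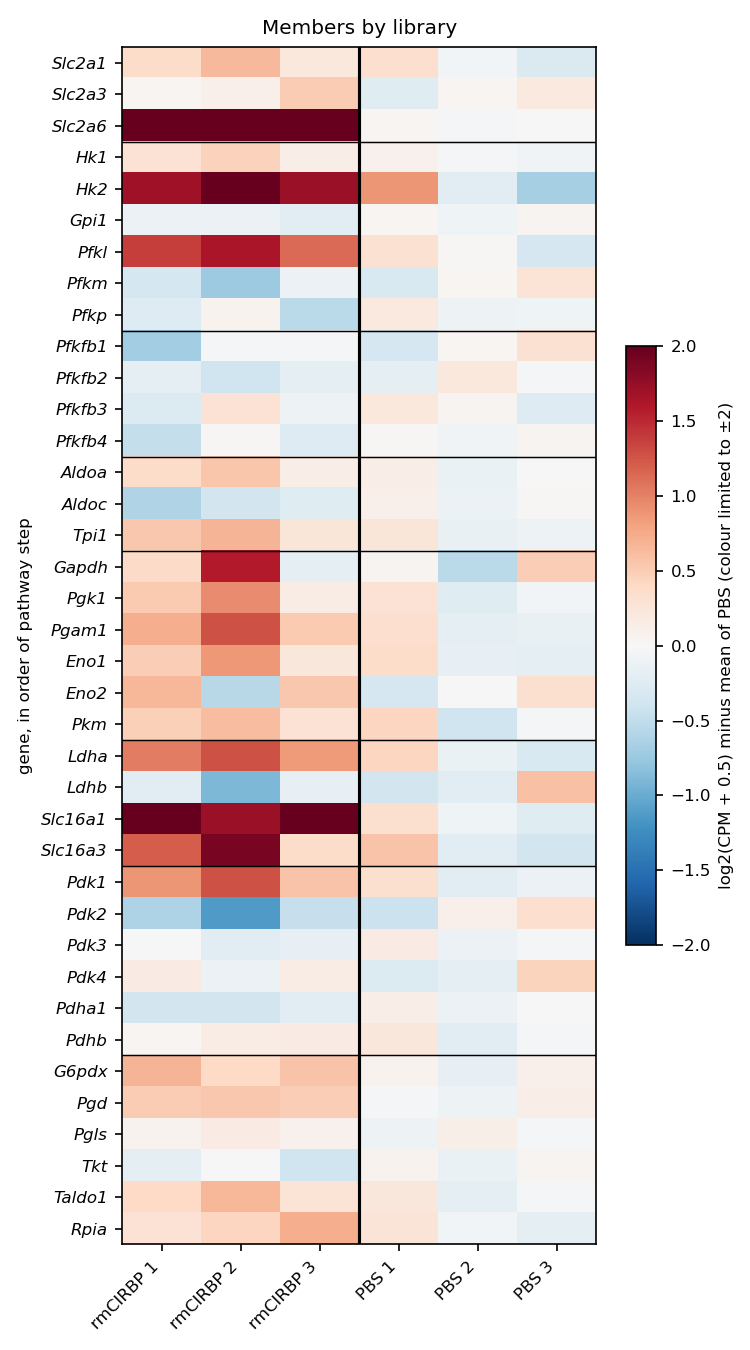
Heat map of log2(CPM + 0.5) minus the mean of the PBS libraries for the 38 genes (rows, in pathway order) in the 6 libraries (columns, rmCIRBP left of PBS), with colour limited to ±2. Slc2a6, Slc16a1, Hk2 and Pfkl are above the PBS mean in all 3 rmCIRBP libraries, and among the PBS libraries PBS 1 is the highest for 24 of the 38 genes.

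Genes around the pathway were taken from further lists, and the calls of Gbe1, Gfpt2, Arrdc4, Epas1 and Hif1a, described below, held without any single library. The counts in each list stand beside 6.74% of all genes tested called higher and 4.77% called lower. As the lists were chosen with earlier results of these data known, their counts are descriptions only. Among other members of the monocarboxylate transporter family, Slc16a4 fell by 1.51 on the log2 scale (edgeR adjusted p = 0.0168, and 0.0697 without PBS 3), and Slc16a10, an aromatic amino acid carrier, had a value of 1.27 without passing the test (adjusted p = 0.0512).

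Of 18 other glycolysis genes tested, 1 rose and 1 fell. Eno3, the muscle enolase, had 29.9, 28.0 and 26.3 CPM with rmCIRBP against 79.8, 44.4 and 53.1 CPM with PBS, without overlap (log2 fold change -1.07 ± 0.21; edgeR adjusted p = 0.0164, and 0.0585 without rmCIRBP 1). Pgm1, a phosphoglucomutase, had a log2 fold change of 0.51 (adjusted p = 0.0308), a call that ended without rmCIRBP 1, rmCIRBP 2, PBS 2 or PBS 3 (0.111, 0.0583, 0.115 and 0.117). Of 13 genes of pyruvate entry, 0 rose and 1 fell, the mitochondrial malic enzyme Me3 (-1.02; edgeR adjusted p = 0.0398), and this call ended without any one of the 6 libraries. Pdhx and Mpc1, a part of the pyruvate dehydrogenase complex and a subunit of the mitochondrial pyruvate carrier, had values of 0.62 and 0.51 (adjusted p = 0.0676 and 0.0823).

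Of 10 other pentose phosphate and ribose genes, edgeR called 0, with 2 higher and 1 lower at an unadjusted p under 0.05; DESeq2 called 1 higher and limma voom 0. The smallest p-values were those of Prps2 (-0.36), H6pd (0.56) and Rpe (0.45), with edgeR adjusted p = 0.0843, 0.0849 and 0.0931. Of 17 glycogen genes, 1 rose and 2 fell: Gbe1, the glycogen branching enzyme (0.88; adjusted p = 0.00648), Pygb, the brain-type glycogen phosphorylase (-0.64; adjusted p = 0.0126), and Stbd1, a glycogen-binding protein (-1.06; adjusted p = 0.0274). The Pygb call ended without rmCIRBP 1 (0.0644) or PBS 2 (0.0533), and the Stbd1 call without any one library except rmCIRBP 2.

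Of 11 genes of the hexosamine pathway, which branches off at fructose 6-phosphate, 2 rose and 1 fell. Gfpt2, an isoform of its first and rate-limiting enzyme, had 215, 157 and 273 CPM with rmCIRBP against 74.9, 58.1 and 50.5 CPM with PBS, without overlap (log2 fold change 1.81 ± 0.23; edgeR adjusted p = 0.00271). Gnpnat1 (0.65; adjusted p = 0.0452) and Uap1l1 (-0.51; adjusted p = 0.0412) passed narrowly, the first losing its call without any one library except PBS 1 and the other without any one of the 6. Of 8 genes of the serine and folate branch, 1 rose, Mthfd1 (0.80, edgeR adjusted p = 0.0479). Its call ended without rmCIRBP 1, rmCIRBP 2, PBS 2 or PBS 3 (0.0872 to 0.161). Of 7 polyol and fructose genes edgeR called 0, with 1 higher and 2 lower at an unadjusted p under 0.05; DESeq2 called 2 lower and limma voom 0. Khk and Sord had values of -1.03 and -0.99 and Akr1b3 0.52 (edgeR adjusted p = 0.0571, 0.0930 and 0.100).

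Of 14 known regulators of glucose metabolism tested, 6 rose and 2 fell, where 6.74% of all genes tested were called higher and 4.77% lower. Hif1a, which encodes the oxygen-regulated subunit HIF-1α, had 553, 629 and 466 CPM with rmCIRBP against 229, 163 and 173 CPM with PBS (log2 fold change 1.55 ± 0.18; edgeR adjusted p = 0.00181). Epas1, which encodes the related HIF-2α, had 31.0, 26.3 and 22.0 CPM with rmCIRBP against 7.07, 7.16 and 6.91 CPM with PBS (1.91 ± 0.17; adjusted p = 0.000563). Neither had overlapping groups. HIF proteins are regulated largely by their stability, which these data do not measure.

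Arrdc4 and Txnip encode related arrestin-like proteins that are known to lower glucose uptake and to be switched on by glucose-sensing factors, and they changed in opposite directions. Arrdc4 had 50.5, 44.1 and 51.2 CPM with rmCIRBP against 18.6, 14.2 and 15.7 CPM with PBS (log2 fold change 1.59 ± 0.14; edgeR adjusted p = 0.000543). Txnip had 97.5, 76.6 and 120 CPM with rmCIRBP against 131, 204 and 263 CPM with PBS (-1.02 ± 0.26; adjusted p = 0.0432). The groups overlapped in neither gene, and the Txnip call ended without rmCIRBP 1, rmCIRBP 2, PBS 2 or PBS 3 (0.126, 0.083, 0.133 and 0.137).

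Myc, a transcription factor that drives many glycolytic genes, had 37.1, 62.8 and 35.4 CPM with rmCIRBP against 22.6, 16.7 and 11.4 CPM with PBS (log2 fold change 1.42 ± 0.30; edgeR adjusted p = 0.0224). The groups did not overlap, and the call ended without PBS 2 (0.0908) or PBS 3 (0.0729). The other calls were Trp53, which encodes p53 (0.87; adjusted p = 0.0175, and 0.0842 without PBS 2), Nfe2l2, which encodes the oxidative stress factor NRF2 (0.35; adjusted p = 0.0424), and the orphan receptor Esrra (-0.40; adjusted p = 0.0427). The calls of Nfe2l2 and Esrra ended without any one of the 6 libraries.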

How the data were processed

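Gene expression was measured by RNA-seq in 6 libraries, 3 with rmCIRBP and 3 with PBS. The authors deposited raw counts per gene in 1 table. Per the labels' protocols, polyA RNA was taken through a TruSeq mRNA kit, and, per the submitters' processing notes, featureCounts, DESeq2, R 4.1.2 and the GRCm38 (mm10) build were used. What aligner, annotation release, strand setting and rule for multiply mapped reads were used is not given in the sources used here, so reads of overlapping genes, antisense partners and near-identical copies cannot be told apart.

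Each column name matched 1 sample title by group and number, and 0 columns were unmapped. With edgeR 4.0.16 (R 4.3.3), counts were filtered (filterByExpr, minimum count 10), scaled by TMM and tested with the quasi-likelihood F test, two-sided, with treatment as the only term and Benjamini-Hochberg adjustment over all 15801 genes at 0.05. Standard errors were derived from the F statistic. The test was checked on simulated counts. Family shares used CPM per kb of merged exons of GENCODE M21, with exact permutation tests over libraries. Sequence sharing was taken from 50-base windows of GENCODE transcripts, and promoters from RefSeq (GRCm38.p6). Alternatives were other scalings, filters and tools (DESeq2 1.42.0, limma 3.58.1), the replicate number as a block, and leaving out libraries.

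The genes and lists were chosen with earlier results of these data known. All 38 genes could be named, with full values for those past the test and the most abundant of each step, and, of the other pathway lists, up to 3 genes with the smallest p and any count of 5 or fewer. Of the listed symbols, Mgea5, Akr1b1 and Mondoa are not in the table. Alternatives for genes of the other lists were added after their calls were seen. A result of the transporter list is not reported here.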

Additional observations from a re-analysis of the deposited data

How the results depend on the processing

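Leaving out 1 library gave 723 to 2144 genes called in all (main 1818) and 3 to 12 of the 38 called higher (main 9): 742 and 3 without rmCIRBP 1, 723 and 3 without PBS 2, and 863 and 4 without PBS 3. Without PBS 1 and rmCIRBP 2 together the counts were 2802 and 15. The number called lower was 1, Pdk2, instead of 0 with no filter on low counts, with DESeq2, without PBS 1 and without PBS 1 and rmCIRBP 2 together. The median log2 fold change of the 38 stayed between 0.27 and 0.39 in all alternatives. Values near 0 changed sign, and the cause was not tested. Pdk4 (main 0.03) was -0.036 with upper quartile scaling, -0.00497 with library size scaling, -0.015 without rmCIRBP 1, -0.00411 without rmCIRBP 3, -0.094 without PBS 1, -0.056 without PBS 2, 0.30 without PBS 3 and -0.013 without PBS 1 and rmCIRBP 2 together. Pfkfb3 (main -0.02) was 0.00368 with no filter, 0.10 without rmCIRBP 1, -0.19 without rmCIRBP 2, 0.03 without rmCIRBP 3, 0.10 without PBS 1 and 0.01 without PBS 2. The difference in the share of Eno1 (main 0.61 percentage points) was -0.599 without rmCIRBP 2, -0.191 without PBS 3 and 1.57 without PBS 1. Among the other lists, upper quartile scaling ended the calls of Gnpnat1 (edgeR adjusted p = 0.0584), Nfe2l2 (0.0724) and Mthfd1 (0.0583), no filter those of Me3 (0.0663), Nfe2l2 (0.0716) and Esrra (0.0858), library size scaling that of Nfe2l2 (0.0564), and the robust fit those of Txnip (0.0506) and Mthfd1 (0.0506). Whether the replicate numbers pair the samples could not be decided. Deviations from the group mean correlated at -0.11, -0.17 and 0.25 for same-numbered libraries. For libraries with different numbers the correlations lay between -0.33 and 0.36, the highest being that of rmCIRBP 2 with PBS 1. Such deviations sum to 0 within each group of 3, so these correlations depend on each other. With the replicate number as a block, 1258 genes were called in all and 7 of the 38 higher, without Pgam1 (0.0696) and Pgd (0.0606); of the other lists it ended the calls of Pgm1 (0.0541), Uap1l1 (0.0957), Gnpnat1 (0.0964), Me3 (0.101), Nfe2l2 (0.117), Esrra (0.116) and Mthfd1 (0.0599).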
